A study of Mus musculus with 6 samples.

Results

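The 3 D-type cyclins and 7 inhibitors of cyclin-dependent kinases (CDKs) were examined in osteoblast precursors treated with metformin. The members were the rows of the deposited expression table with the gene names Ccnd1, Ccnd2, Ccnd3, Cdkn1a, Cdkn1b, Cdkn1c, Cdkn2a, Cdkn2b, Cdkn2c and Cdkn2d, which were 10 of 54532 genes. MC3T3-E1, a mouse pre-osteoblast line that descends from a single clone, was grown in osteogenic medium alone (3 samples) or in osteogenic medium with metformin (3 samples), a biguanide given against high blood glucose. The dose was 0.2 mM and the induction lasted 3 days, neither of which is in the sample labels, and the methods call the samples biological replicates. Both groups received the same inducers, named in the methods as β-glycerophosphate, ascorbic acid and dexamethasone, so the controls are induced cells and not undifferentiated ones.

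D-type cyclins bind CDK4 and CDK6, and these complexes phosphorylate the retinoblastoma protein and its relatives, which frees E2F transcription factors and lets a cell pass from G1 into S phase. Inhibitors of the INK4 family (Cdkn2a, Cdkn2b, Cdkn2c and Cdkn2d, which encode p16, p15, p18 and p19) bind CDK4 and CDK6 themselves, whereas those of the CIP/KIP family (Cdkn1a, Cdkn1b and Cdkn1c, which encode p21, p27 and p57) bind complexes of cyclin and CDK and act mainly on CDK2. In bone, osteoblast precursors multiply before they leave the cell cycle and mature, and both cyclins and inhibitors are made at that transition.

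With metformin, 4 members rose: the cyclins Ccnd1 and Ccnd2 and the inhibitors Cdkn2c and Cdkn2d. Ccnd1, Cdkn2c and Cdkn2d each rose by more than 1 on the log2 scale. No member passed the test in the lower direction, in which Cdkn1b had the smallest p-value. Cdkn1c was close to the limit of detection, and Cdkn2a and Cdkn2b had 0 reads in all 6 samples. Values are FPKM, the reads of a gene scaled by its length and by the library, and log2 fold changes are of FPKM + 1, which understates the change of low genes. The test was limma-trend over the 12681 genes whose FPKM averaged 0.5 or more, with p-values adjusted by the Benjamini-Hochberg method over all of them and a threshold of 0.05. Of all genes tested, 13.2% were called higher and 9.28% lower. Of the 10 members, 7 were tested, of which 4 were called higher and 0 lower, and at an unadjusted p under 0.05 the counts were 4 and 1. With voom on the recovered reads 1 member, Cdkn1b, was called lower. The median log2 fold change was 0.48 over the 7 tested members and 0.0053 over all genes. All 3 metformin samples lay above all 3 controls for 4 members, against 23.6% of all genes, and below them for 1 member, against 20.5% of all genes.

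The reads behind the FPKM values came to 18399861 to 20652437 per control and 19256672 to 22111790 per metformin sample. Control replicate 1 stood apart: across genes its log2 values had correlations of 0.96 and 0.952 with those of replicates 2 and 3, which had 0.988 with each other, while the metformin samples had 0.992 in each pair. Values without control replicate 1 are therefore given beside the results where they change the call of a member or the counts of a gene list, and in that fit 23.4% of all genes were called higher and 20.4% lower. With each library corrected for GC content, 2062 genes were called higher and 2433 lower, against 1670 and 1177 without the correction, so calls rose in both directions and the share that were higher was 45.9% against 58.7%. Among the members that fit called 4 higher and 1, Cdkn1b, lower. The osteoblast markers checked the cell label: all 9 were expressed, with a summed level of 11403 to 13402 FPKM in the controls and 8130 to 8622 FPKM with metformin. Of these, 2 rose (Col1a1 and Col1a2, the chains of type I collagen) and 2 fell (Spp1 and Ibsp, matrix phosphoproteins). Spp1 weighs most in the sum, at 6565 to 8357 FPKM in the controls and 2680 to 2727 FPKM with metformin. Over all samples Alpl was at 2.44 to 3.84 FPKM and Bglap at 2.22 to 12.3 FPKM, below the chondrocyte marker Sox9 (19.9 to 28.1 FPKM). Of 5 markers each, those of adipocytes summed to 1.65 to 3.18 FPKM in the controls and 1.89 to 2.31 FPKM with metformin (1 at 0 throughout), those of chondrocytes to 26.6 to 39.9 and 28.7 to 30.6 FPKM, and those of macrophages to 1.97 to 2.18 and 1.12 to 1.35 FPKM (1 at 0 throughout, and 1, Cd68, lower). Most of these sums came from Fabp4 for adipocytes, Sox9 and Col2a1 for chondrocytes, and Cd68 for macrophages. Every other marker of those lists was at most 0.2015 FPKM in any sample. Endothelial and skeletal muscle markers summed to at most 0.156 and 0.443 FPKM in any sample. In bulk RNA, fewer cells of a type and less RNA per cell cannot be told apart.

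The sequences before the start sites of 4 inhibitors are shown because their transcripts moved in different ways: Cdkn2c and Cdkn2d rose, Cdkn1b was lower in every metformin sample, and Cdkn1a is a textbook p53 target. They are the bases before a RefSeq start site (GRCm38.p6) that lie in no annotated exon, written 5′ to 3′ along the gene. Capitals mark matches on either strand to the p53 decamer (the repeat unit of the p53 response element), to CCAAT or to the GC box GGGCGG.
Cdkn1a (chr17:29090729-29090975, + strand): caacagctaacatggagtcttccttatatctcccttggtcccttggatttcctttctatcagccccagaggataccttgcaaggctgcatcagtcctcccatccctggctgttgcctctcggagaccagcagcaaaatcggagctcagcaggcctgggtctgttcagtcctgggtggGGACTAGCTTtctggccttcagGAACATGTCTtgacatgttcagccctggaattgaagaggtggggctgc
Cdkn1b (chr6:134920151-134920400, + strand): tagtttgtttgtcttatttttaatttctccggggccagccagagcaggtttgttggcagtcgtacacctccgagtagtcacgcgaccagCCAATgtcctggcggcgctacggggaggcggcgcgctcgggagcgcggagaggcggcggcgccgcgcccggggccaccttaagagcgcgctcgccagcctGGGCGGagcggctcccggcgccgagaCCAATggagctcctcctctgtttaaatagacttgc
Cdkn2c (chr4:109665373-109665609, − strand): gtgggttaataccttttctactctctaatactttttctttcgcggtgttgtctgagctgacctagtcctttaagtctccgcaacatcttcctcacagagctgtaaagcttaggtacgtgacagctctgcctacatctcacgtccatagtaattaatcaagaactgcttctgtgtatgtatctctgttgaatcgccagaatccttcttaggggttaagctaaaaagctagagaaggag
Cdkn2d (chr9:21291408-21291459, − strand): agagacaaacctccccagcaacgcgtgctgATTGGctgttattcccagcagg
The stretch of Cdkn1a held 2 p53 decamers, which do not overlap. That of Cdkn1b held a GC box between CCAAT boxes. That of Cdkn2d, which is 52 bases long and ends 198 bases before the start because exons cover the rest, held 1 inverted CCAAT box. That of Cdkn2c, which lies before an internal start of the gene, held none of the motifs searched. RefSeq windows, from 250 bases before to 50 bases after a start, were found for 7 of the 10 members and numbered 11; there was none in that table for Ccnd1, Ccnd2 or Cdkn1c. The GC box was in 9 of the 11 windows and in 35.7% of all 32851 windows, and CCAAT was in 5 of the 11 and in 37.4% of all. The p53 decamer was in 2 of the 11 windows, those of Cdkn1a and Cdkn2d, and in 8.36% of all. The E2F motif (TTTCCCGC, TTTCGCGC, TTTGCCGC or TTTGGCGC) was in 1, of Cdkn2a, and in 2.26% of all, the CRE TGACGTCA was in 1, of Cdkn2b, and in 1.79% of all, and the E-box CACGTG was in 1, of Cdkn2c, and in 7.15% of all. The AP-1 motif TGANTCA, in 7.81% of all windows, and the TATA box TATAAA, in 13.6%, were in 0 of the 11. Some matches lie outside the stretches shown: the rest of the Cdkn2d window held 5 GC boxes and 1 p53 decamer. Outside its stretch shown, the same Cdkn2c window held 1 CCAAT box and 1 E-box. The other Cdkn2c window, exonic in all 250 bases before its start and so not shown, held 4 GC boxes. Cdkn1a also has another window (chr17:29093519-29093818), exonic in the same way and not shown. It held 2 GC boxes and no p53 decamer. The stretches shown therefore do not compare the motif content of whole windows. Overlaps between different motifs were not removed. These matches are letters in a window, and binding was not measured.

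Ccnd1 encodes cyclin D1, the D cyclin best known as a target of growth factor signalling. It lies at chr7:144929931-144939925 on the − strand of GRCm38 (ENSMUSG00000070348). Its level was 63.6, 56.0 and 65.6 FPKM in the controls and 131, 132 and 126 FPKM with metformin. The groups were far apart, with the lowest metformin sample well above the highest control. The mean rose from 61.7 ± 5.07 to 130 ± 2.85 FPKM (SD, n = 3 each), by 2.10 times, and the log2 fold change was 1.06 (95% interval 0.84 to 1.29, limma-trend adjusted p = 0.000503). These values rest on 5465 to 6074 reads per control and 11597 to 13517 per metformin sample, so counting error is small beside the spread between samples. Exons of Oraov1 overlap Ccnd1 on the opposite strand over 818 bases, and the library kit named in the labels, Illumina TruSeq RNA, does not mark strand, so reads of the shared bases cannot be told apart. Oraov1 had 410, 545 and 574 reads in the controls and 295, 324 and 324 with metformin, fewer in each metformin sample than in any control.

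Cyclin D2, the product of Ccnd2 (chr6:127125162-127152193, − strand, ENSMUSG00000000184), was the most abundant D cyclin transcript on average in the controls. Ccnd2 stood at 77.3, 58.7 and 66.7 FPKM in the controls and at 90.9, 96.6 and 94.2 FPKM with metformin. The metformin samples were close to one another and all above the controls, of which replicate 1 came nearest to them. The mean rose from 67.6 ± 9.31 to 93.9 ± 2.87 FPKM (SD, n = 3 each), and the log2 fold change was 0.48 (95% interval 0.20 to 0.76, limma-trend adjusted p = 0.029). The call for Ccnd2 depended on the samples used. Without control replicate 1 the log2 fold change was 0.58 (limma-trend adjusted p = 0.0013), whereas it was no longer called without control replicate 2 (0.38, adjusted p = 0.069), control replicate 3 (0.47, adjusted p = 0.0616), metformin replicate 1 (0.50, adjusted p = 0.0982), metformin replicate 2 (0.46, adjusted p = 0.121) or metformin replicate 3 (0.47, adjusted p = 0.109). The antisense genes 9330179D12Rik and Gm43126 overlap exons of Ccnd2, with at most 50 and 0 reads in any sample.

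Ccnd3 (chr17:47505051-47599691, + strand, ENSMUSG00000034165), which encodes cyclin D3, had 16.3, 23.2 and 24.3 FPKM in the controls and 20.8, 22.0 and 20.2 FPKM with metformin. The metformin samples lay inside the range of the controls, whose replicate 1 was the lowest sample of all. The means were 21.3 ± 4.37 and 21.0 ± 0.927 FPKM (SD, n = 3 each). The log2 fold change of 0.0026 had a 95% interval of -0.37 to 0.37 (limma-trend adjusted p = 0.992). A change inside that interval in either direction is not excluded. Without control replicate 1 the fold change turned to -0.17 (95% interval -0.32 to -0.026, limma-trend adjusted p = 0.0601), still short of the threshold. The value of Ccnd3 is uncertain in part, since exons of Bysl overlap it on the opposite strand and the copy Ccnd3-ps is 96.6% identical over 417 bases. Bysl had 557, 827 and 797 reads in the controls and 927, 1003 and 896 with metformin, more in each metformin sample than in any control. Its effect on the value of Ccnd3 was not tested.

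**Figure D1:**
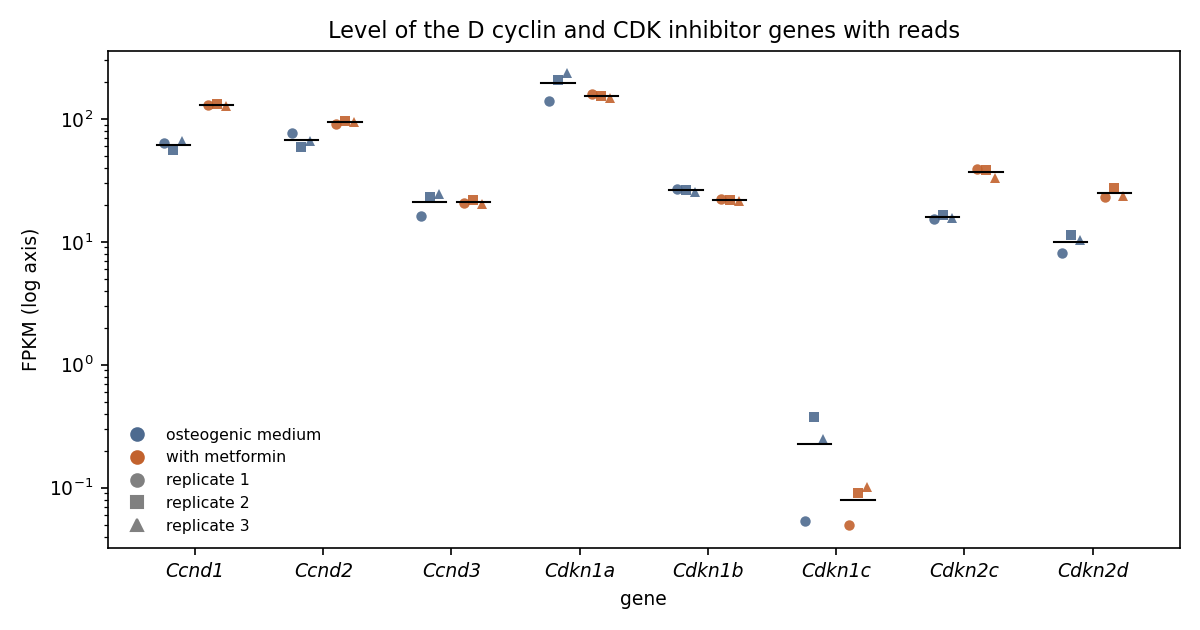
The plot gives the level (FPKM, log axis) of the 8 members with reads in each of the 6 samples, with blue points for osteogenic medium, orange points for added metformin, marker shapes for replicate numbers and black lines for group means. Ccnd1, Ccnd2, Cdkn2c and Cdkn2d are the 4 genes whose metformin points all lie above the controls, and Cdkn1b is the gene with all of them below.

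The summed D cyclin level was higher with metformin, and Ccnd1 took a larger share of it. D cyclin transcripts summed to 157, 138 and 157 FPKM in the controls and to 243, 250 and 241 FPKM with metformin, which is 1.62 times the control mean. Within that sum Ccnd1 held 40.5%, 40.6% and 41.9% in the controls and 53.9%, 52.6% and 52.5% with metformin. Both quantities separated the groups with no overlap. Among all genes tested, 23.6% had all metformin samples above all controls and 20.5% had them all below. Ccnd2 held 42.6% to 49.2% of the sum in the controls and 37.5% to 39.1% with metformin, and Ccnd3 held 10.3% to 16.8% and 8.38% to 8.79%, so the shares of both were lower in every metformin sample. These sums and shares are descriptions and were not tested.

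Among the inhibitors, the CIP/KIP genes had the highest levels and no call. Cdkn1a (chr17:29090976-29100727, + strand, ENSMUSG00000023067) encodes p21, which halts the cycle after DNA damage through p53 and is also made as cells differentiate. It was the most abundant member in both groups, at 139, 209 and 235 FPKM in the controls and 159, 155 and 148 FPKM with metformin. Control replicate 1 was the lowest of all 6 samples and the other controls were the highest, so the groups overlap only through that library. The means were 194 ± 49.6 and 154 ± 5.27 FPKM (SD, n = 3 each), with a log2 fold change of -0.30 (95% interval -0.76 to 0.16, limma-trend adjusted p = 0.316). Without control replicate 1 the control mean was 222 FPKM and the log2 fold change was -0.52 (95% interval -0.70 to -0.35, limma-trend adjusted p = 0.00205), a call in the lower direction. The call for Cdkn1a thus depended on a single library. An unclassified gene, AC167363.2, overlaps exons of Cdkn1a on the opposite strand, with 21 to 87 reads per sample.

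Cdkn1b (chr6:134920401-134925513, + strand, ENSMUSG00000003031) encodes p27, which holds resting cells out of the cycle and is largely controlled by protein breakdown. It had 26.9, 26.6 and 25.3 FPKM in the controls and 22.1, 22.0 and 21.3 FPKM with metformin. The samples of each group were tightly grouped and every metformin sample was below every control. The mean was 26.2 ± 0.846 FPKM in the controls and 21.8 ± 0.426 FPKM with metformin (SD, n = 3 each), a ratio of 0.832. The log2 fold change was -0.25 (95% interval -0.43 to -0.075), with an unadjusted p of 0.0125 and a limma-trend adjusted p of 0.054, just outside the threshold. It was called lower in 5 of 14 alternative fits, among them those with scaling by total reads (-0.28, adjusted p = 0.031), with voom on the recovered reads (-0.29, adjusted p = 0.0314), with the GC correction (-0.29, adjusted p = 0.0306) and without control replicate 1 (-0.24, adjusted p = 0.0131). The other fits did not call it. Among them, limma-trend adjusted p was 0.181 with same-numbered samples as a block and 0.0704 with that block and the GC correction. Leaving out a metformin sample gave limma-trend adjusted p of 0.184 to 0.205, and leaving out control replicate 2 gave 0.123.

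Cdkn1c (chr7:143458339-143461050, − strand, ENSMUSG00000037664), the imprinted gene of p57, had 2, 16 and 10 reads in the controls and 2, 4 and 4 reads with metformin, or 0.0537, 0.374 and 0.250 against 0.0494, 0.0900 and 0.101 FPKM. Control replicate 1 had as few reads as the lowest metformin sample, so the groups overlap. For this gene 3 reads correspond to 0.0675 to 0.0806 FPKM, a limit that covers counting error only. Cdkn1c did not enter the test, and in a fit with no filter on low values its log2 fold change was -0.17 (limma-trend adjusted p = 0.381).

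Cdkn2c and Cdkn2d, the INK4 genes with reads, had the largest increases of the 7 tested members. Cdkn2c (chr4:109660876-109667189, − strand, ENSMUSG00000028551) encodes p18. Its level was 15.2, 16.6 and 15.5 FPKM in the controls and 39.4, 38.2 and 33.1 FPKM with metformin, from 747 to 938 and from 1731 to 2236 reads. Every metformin sample was clearly above the controls, which differed little from one another. The mean rose from 15.8 ± 0.747 to 36.9 ± 3.37 FPKM (SD, n = 3 each), by 2.34 times, and the log2 fold change was 1.17 (95% interval 0.94 to 1.40, limma-trend adjusted p = 0.000397).

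Cdkn2d (chr9:21288410-21291407, − strand, ENSMUSG00000096472) encodes the INK4 protein p19, which is distinct from the p19ARF product of Cdkn2a. Its level was 8.04, 11.4 and 10.3 FPKM in the controls and 23.2, 27.5 and 23.5 FPKM with metformin, from 231 to 377 and from 722 to 942 reads. Control replicate 1 was the lowest sample, and no control approached a metformin sample. The mean rose from 9.91 ± 1.72 to 24.7 ± 2.36 FPKM (SD, n = 3 each), by 2.50 times, and the log2 fold change was 1.25 (95% interval 0.91 to 1.58, limma-trend adjusted p = 0.00136). Ccnd1, Cdkn2c and Cdkn2d were each called in 14 of 14 alternative fits, with log2 fold changes of 0.99 to 1.11, 1.10 to 1.25 and 1.12 to 1.35. No gene with overlapping exons or near-identical transcripts was found for Cdkn2c, Cdkn2d or Cdkn1b.

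**Figure D2:**
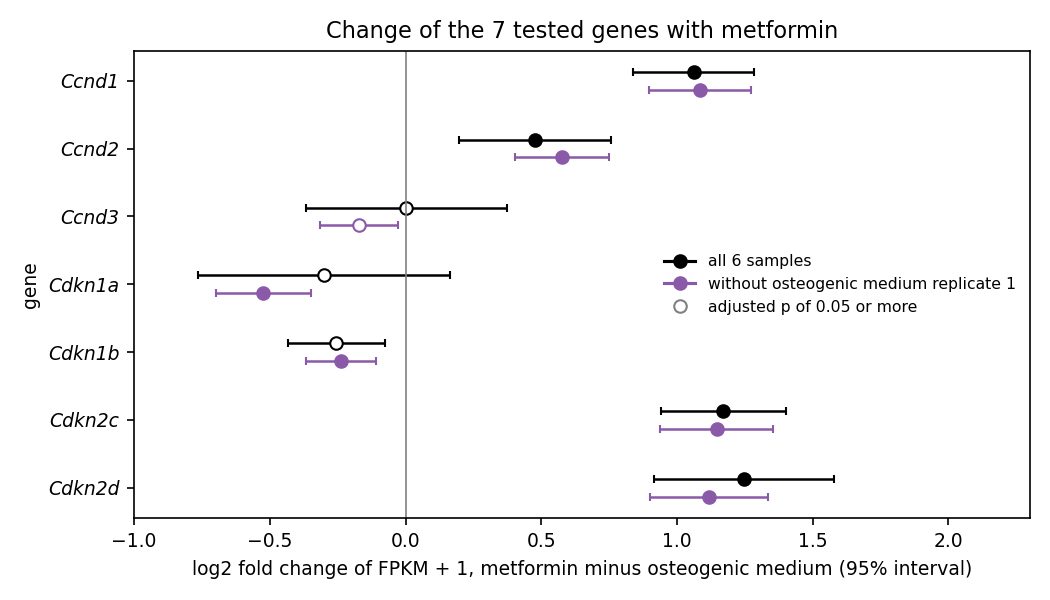
The plot gives the log2 fold change of FPKM + 1 (metformin minus osteogenic medium) of the 7 tested members with 95% intervals, in black for all 6 samples and in purple without control replicate 1, where open circles mark an adjusted p at or above the threshold. Ccnd1, Cdkn2c and Cdkn2d lie near 1 in both fits, and Cdkn1a moves from -0.30 to -0.52 and becomes a call when the library is left out.

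Cdkn2a (chr4:89274471-89294653, − strand, ENSMUSG00000044303), which encodes p16 and p19ARF, and its neighbour Cdkn2b (chr4:89306299-89311039, − strand, ENSMUSG00000073802), which encodes p15 and is known to respond to TGF-β, had 0 reads in each of the 6 samples. A count of 0 allows up to 3 reads, which is 0.117 to 0.140 FPKM for Cdkn2a and 0.0990 to 0.118 FPKM for Cdkn2b, so no fold change is given. The genes around them were at 0 too. From Mtap to Gm12668, 26 consecutive genes over 2493 kb of chromosome 4 (89137122 to 91630139) had 0 of the 119109716 reads of all libraries. Of these 6 are protein-coding: Mtap, Cdkn2a, Cdkn2b, Dmrta1, Zfp352 and Elavl2. Mtap encodes an enzyme of methionine salvage that most tissues express, whereas Elavl2 is chiefly neuronal. Gm12602, the gene before the run, had 517 reads and Gm12670, the gene after it, had 3 reads. Over all genes deposited, 29731 were at 0 in every sample, 6171 of them protein-coding (28.0% of 22046). That share is of single genes, and how often runs of this length occur was not counted. Whether these genes are absent from the line, silent or uncounted was not tested.

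**Figure D3:**
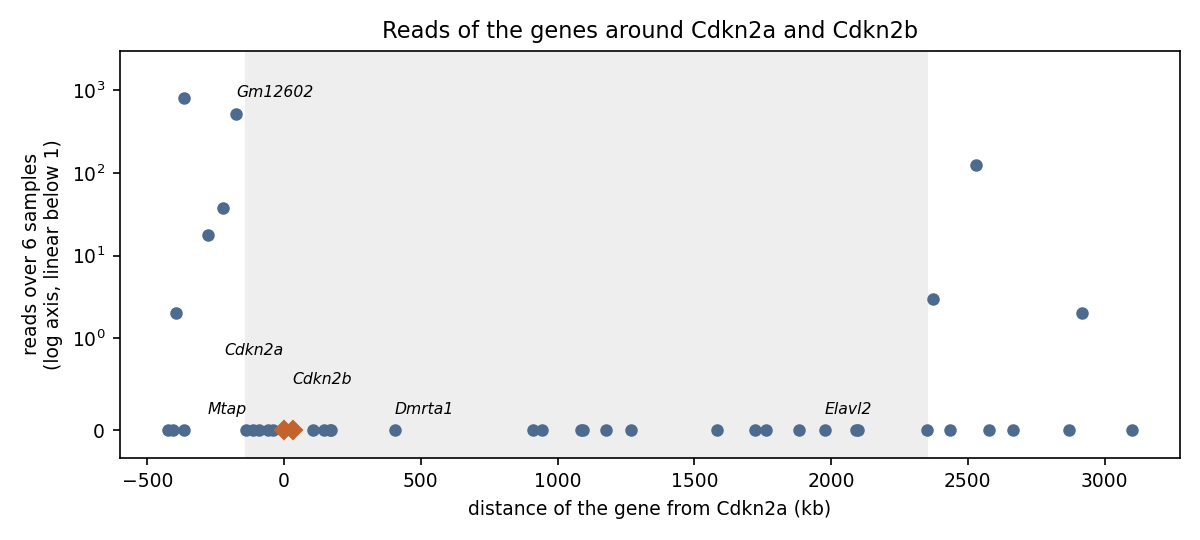
The plot gives, for each gene near Cdkn2a, the reads summed over the 6 samples (log axis, linear below 1) against its distance from Cdkn2a in kb, with diamonds for Cdkn2a and Cdkn2b and grey shading for the 26 consecutive genes at 0. Genes with reads lie on both sides of the shading, and Gm12602, with 517 reads, is the nearest on the left.

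The summed inhibitor level overlapped between the groups, while the shares of its families did not. INK4 transcripts summed to 23.3, 28.1 and 25.8 FPKM in the controls and 62.7, 65.7 and 56.6 FPKM with metformin, 2.40 times the control mean. Cdkn2c made up 59.3% to 65.5% of the INK4 sum in the controls and 58.2% to 62.9% with metformin, ranges that overlap. The CIP/KIP sum was 166, 236 and 260 FPKM in the controls and 181, 177 and 170 FPKM with metformin, with control replicate 1 below and the other controls above all metformin samples. All inhibitors together came to 189, 264 and 286 FPKM and to 244, 242 and 226 FPKM, a ratio of the means of 0.963 with all samples and 0.863 without control replicate 1. The INK4 share of inhibitor transcripts was 12.3%, 10.6% and 9.02% in the controls and 25.7%, 27.1% and 25.0% with metformin, and that of Cdkn1a was 73.5%, 79.2% and 82.1% against 65.2%, 63.8% and 65.5%. Both shares separated the groups with no overlap and were not tested. Among single genes tested, 23.6% had all metformin samples above all controls and 20.5% had them all below.

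D cyclin FPKM per inhibitor FPKM was 0.830, 0.522 and 0.548 in the controls and 0.996, 1.03 and 1.06 with metformin. The metformin samples were all above the controls, of which replicate 1 was the highest. The means were 0.633 ± 0.171 and 1.03 ± 0.0339 (SD, n = 3 each, not tested), which is 1.63 times with all samples and 1.93 times without control replicate 1. These are ratios of transcripts, and no protein or complex was measured.

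**Figure D4:**
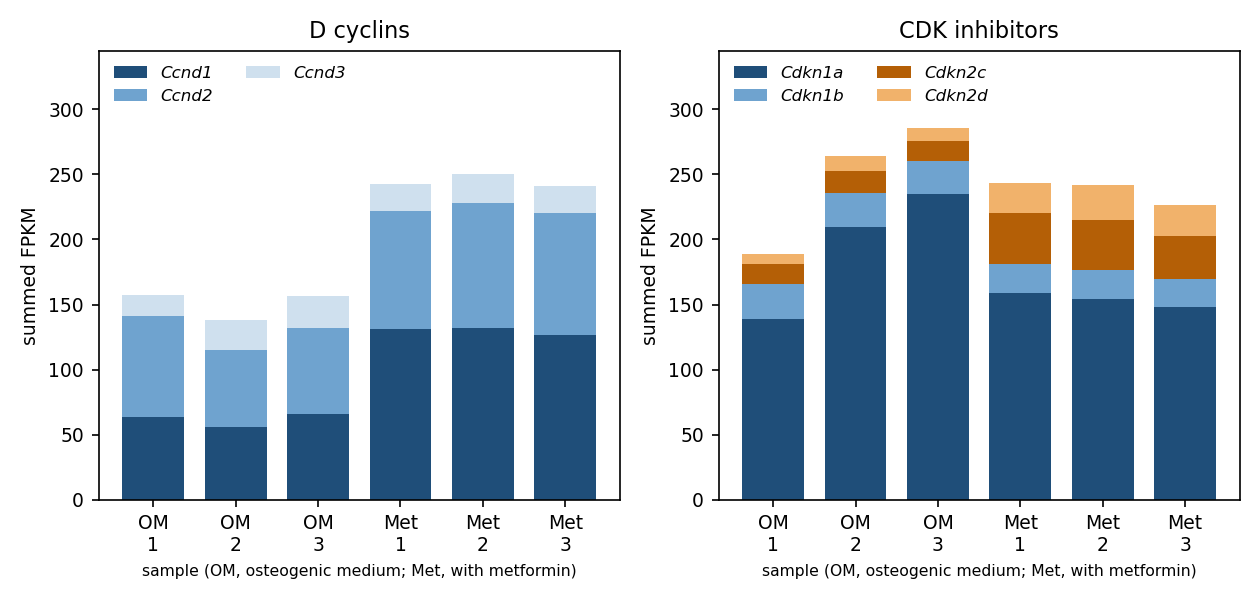
Stacked bars give the summed FPKM of the D cyclins (left) and of the CDK inhibitors (right) in each sample, with a colour for each gene. The D cyclin bars are taller in the 3 metformin samples (241 to 250 FPKM) than in the controls (138 to 157 FPKM). The inhibitor bars of both groups overlap in height, and their Cdkn2c and Cdkn2d segments are taller with metformin.

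The order of the members by level, which FPKM allows because it is per length, differed between the groups. In the controls Cdkn1a came first, followed by Ccnd2 and Ccnd1, whose ranges overlap, then Cdkn1b, then Ccnd3 and Cdkn2c, whose ranges touch (16.3 to 24.3 and 15.2 to 16.6 FPKM), and then Cdkn2d. With metformin the order was Cdkn1a, Ccnd1, Ccnd2, Cdkn2c and Cdkn2d, each with its whole range below that of the gene before it, and then Cdkn1b and Ccnd3, which overlap at 21.3 to 22.1 and 20.2 to 22.0 FPKM. Cdkn1c, Cdkn2b and Cdkn2a were last in both groups. Cdkn2c and Cdkn2d were thus below Cdkn1b in every control and above it in every metformin sample.

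The kinases that the members bind moved unevenly. Of 8 CDK partners and activators, 2 rose, 1 fell and 5 were not called, with a median log2 fold change of 0.14. Without control replicate 1 the counts were 3 higher and 1 lower. Of all genes tested, 13.2% were called higher and 9.28% lower with all samples, and 23.4% and 20.4% without control replicate 1. Cdk4, the shared partner of D cyclins and INK4 proteins, rose from 54.8 ± 5.80 to 82.0 ± 2.14 FPKM (log2 fold change 0.58, limma-trend adjusted p = 0.00873). Cdk6, the other such partner, had 8.07 ± 1.49 and 6.46 ± 0.284 FPKM and was not called (-0.27, limma-trend adjusted p = 0.178). Cdk2, the partner of E and A cyclins, rose from 5.16 ± 0.157 to 11.2 ± 0.108 FPKM (0.99, limma-trend adjusted p = 0.000252). Mnat1, an assembly factor of the kinase that activates CDKs, fell by 0.34 on the log2 scale (limma-trend adjusted p = 0.0302).

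E and A cyclins and E2F factors act after the D cyclin kinases in the cycle. All 3 tested E and A cyclins rose, with log2 fold changes of 1.29 for Ccne1, 1.50 for Ccne2 and 2.49 for Ccna2, while Ccna1, the germ-line form, did not enter the test. Of 13 pocket proteins and E2F factors, 6 rose, 0 fell and 7 were not called (median 0.23), led by the atypical repressors E2f8 (1.97) and E2f7 (1.82) and by Rbl1 (1.48), which encodes p107. Leaving out control replicate 1 gave 7 higher and 0 lower in that list. Over all genes tested, 13.2% were called higher and 9.28% lower with all samples, and 23.4% and 20.4% without control replicate 1. All 15 proliferation markers rose, by 1.16 to 2.61 (median 2.10), led by Top2a (2.61), Aurkb (2.57) and Plk1 (2.56), and their summed level was 111 to 144 FPKM in the controls and 463 to 479 FPKM with metformin. This list moved in the same samples as Ccnd1, Cdkn2c and Cdkn2d, and its part in their change was not tested.

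Genes that break down the members moved in both directions, 3 higher, 3 lower and 7 not called of 13 (median -0.032). Those that rose were Cks1b (1.60) and Skp2 (0.53), the adaptor and receptor of the ubiquitin ligase that marks p27, and Dtl (1.35), a receptor of the ligase that marks p21 in S phase. Those that fell were Fbxo31 (-0.96), a receptor known for cyclin D1, and the ligase scaffolds Cul4a (-0.36) and Cul1 (-0.34). Without control replicate 1 the counts of this list were 5 higher and 4 lower. Of all genes tested, 13.2% were called higher and 9.28% lower with all samples, and 23.4% and 20.4% without control replicate 1.

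Transcription regulators of the members were also divided, with 6 of 21 higher, 5 lower and 10 not called (median -0.15). Fos (3.11) and Jun (1.17), subunits of AP-1, and Id1 (1.37), an inhibitor of basic helix-loop-helix factors, rose most. Foxo3 (-0.94) and Foxo1 (-0.43), forkhead factors known to activate Cdkn1b, and Ets2 (-0.87) fell most. Of 14 tested p53 targets other than Cdkn1a, 2 rose, Btg2 (1.35) and Plk2 (0.70), 3 fell, Gadd45a (-2.13), Sesn1 (-1.71) and Trp53inp1 (-1.09), and 9 were not called (median 0.081). Calls in both directions were also found over all genes tested, at 13.2% higher and 9.28% lower. The call of Cdkn1a itself depends on 1 library. Without control replicate 1 the counts were 6 higher and 9 lower for the transcription regulators and 5 higher and 6 lower for the p53 targets. In that fit 23.4% of all genes were called higher and 20.4% lower.

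**Figure D5:**
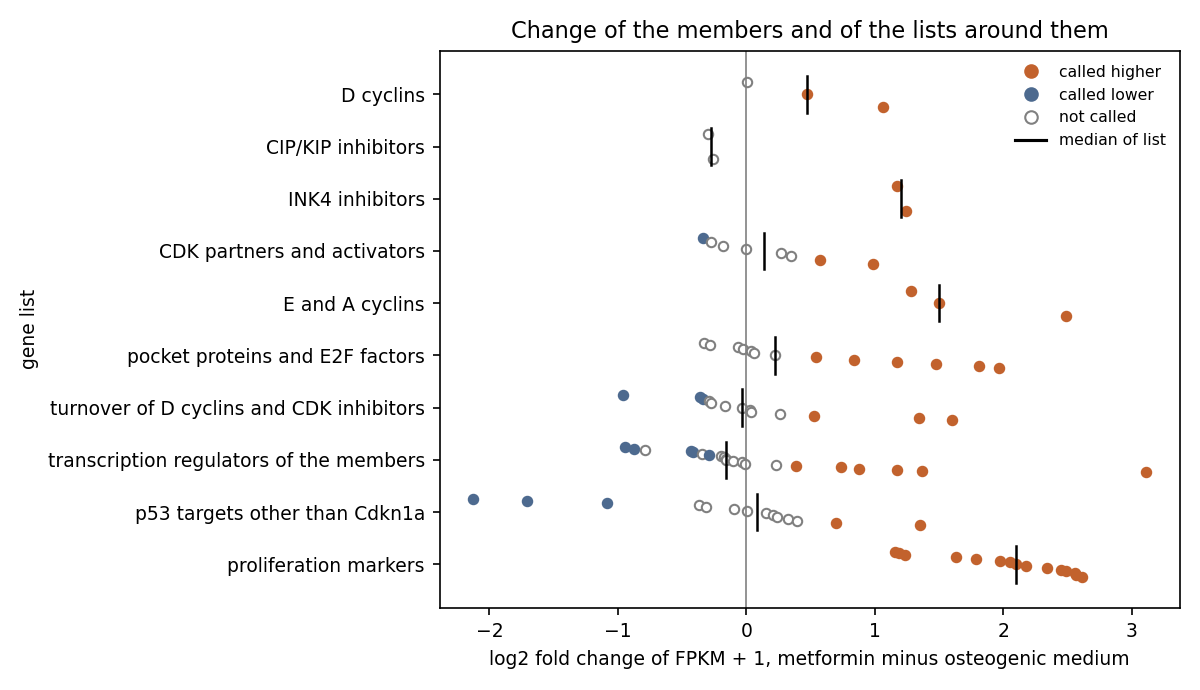
Each point is 1 tested gene, placed by its log2 fold change of FPKM + 1 (metformin minus osteogenic medium), in rows for the members' families and for 7 gene lists around them; filled points were called and vertical lines are medians. The 15 proliferation markers all lie to the right, between 1.16 and 2.61, whereas turnover genes, transcription regulators and p53 targets have calls on both sides.

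The genes whose pattern over the 6 samples was most like that of a called member, among genes with a mean of at least 5 FPKM, were Myh10 and Adamtsl3 for Ccnd1, Fam171a1 and Wnk1 for Ccnd2, Cmc2 and Tubgcp2 for Cdkn2c, and Slc24a3 and Apln for Cdkn2d. Pearson's r of log2 values was 0.996 for Wnk1, 0.997 for Fam171a1 and 0.999 for each of the other 6. The 6 points share 2 conditions and their libraries, so r describes likeness only.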

How the data were processed

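RNA sequencing of 6 samples was used, 3 per group, grouped by the sample labels. The authors deposited 1 table of normalised values with no unit, which were taken as FPKM. Every value above 0, times its gene length, gave whole reads (within 0.01 read) at 1 fixed step per library. Any unit scaled by length and library would give this. Read as FPKM, the step implies a library size near but not equal to the recovered reads, for example 1.966e+07 against 18792236 in control replicate 3. The listed length is the union of exons in GENCODE M21 (GRCm38) for 53325 of 54409 matched genes. The submitters' processing notes list Bowtie 0.12.2, mm8 and mm9, with no role, yet 53499 genes have GRCm38 coordinates. Columns of other samples numbered 0. For their own comparison the authors used DESeq2. At these depths 3 reads are 1.36e-05% to 1.63e-05% of a library.

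The groups were compared with limma 3.58.1 in R 4.3.3 (limma-trend, log2(FPKM + 1), average FPKM of 0.5 or more, Benjamini-Hochberg adjustment), checked on simulated data. Transcripts at 95% identity or more over 200 bases (BLAST+ 2.17.0) counted as near-identical. The alternative fits used no filter, at least 10 reads in every sample, 0.1 as pseudocount, scaling by total reads, voom on recovered reads, the replicate block, a GC correction (spline, 5 degrees of freedom), both together, and leaving out each sample. The 10 members and the lists were chosen with earlier results of these data known. Named genes are the members, Cdk2, Cdk4 and Cdk6, up to 3 largest calls each way per list, the 2 genes most like each called member, and neighbours in position or sequence. Figures were drawn with matplotlib 3.10.9.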

Additional observations from a re-analysis of the deposited data

How the results depend on the processing

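Members called higher numbered 4 with all samples and 3 or 4 in every alternative, and Ccnd1, Cdkn2c and Cdkn2d kept their call in each. Members called lower numbered 0, and 1 under scaling by total reads, no filter, voom or GC correction, with a range of 0 to 2 when 1 sample was left out. The 2 came without control replicate 1 (Cdkn1a and Cdkn1b). The direction of Ccnd3 reversed, at -0.025 under scaling by total reads and under voom and -0.061 under the GC correction with and without the replicate block, and ranged from -0.17 to 0.11 with 1 sample left out. Over all genes, 1670 higher calls became 938 (without metformin replicate 1) to 2969 (without control replicate 1), and 1177 lower calls became 2433 with the GC correction, 1888 with the GC correction and replicate block, and 495 to 2590 with 1 sample left out. Under the replicate block, 1161 genes were called higher and 698 lower, and Ccnd2 lost its call (limma-trend adjusted p = 0.0805), as it did with no filter (0.054); the block changed no other call among the members. Deviations of same-numbered samples from their group means had correlations of -0.0533, 0.000265 and -0.0549 over genes. With 3 samples a group these values cannot decide whether same-numbered samples shared a culture or a batch. Scaling by total reads moved the median of all genes by -0.025, voom by -0.027 and the GC correction by -0.054. The causes were not tested. With 3 samples a group, a tested member that was not called may still have changed by an amount inside its interval. Reads of genes that overlap on opposite strands could not be separated.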
